A study of Mus musculus with 12 samples.

Results

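Sik1, Sik2 and Sik3, the salt-inducible kinases, were followed through heart RNA-seq libraries together with the CREB coactivators Crtc1, Crtc2 and Crtc3, the transcription factors Creb1 and Crem, and the effector genes Slc25a25 and Ppargc1a. These are 10 of the 17536 genes listed, and 10 of 10 passed the filter that left 13489 genes. The set was selected on the AOS-FMT values of Sik1 and Slc25a25, which were highest there, so for every comparison that holds AOS-FMT the members' values are a description without a test. Hearts came from 10-week-old mice of the outbred ICR stock, with 3 libraries in each of 4 groups: AOS-FMT, whose treatment label is B+AOS10mg/kg-FMT, control-FMT, labelled B+Con-FMT, busulfan at 20 mg/kg, and control. Busulfan, a DNA alkylating agent, is used in chemotherapy. The abbreviations AOS and FMT are the labels' own, and no busulfan dose is given for either FMT group. The B of both FMT labels is taken here as busulfan, because the group code in the titles of the busulfan libraries also begins with B. The labels do not spell it out. The replicates are numbered without a statement that they are separate animals, so a p-value here covers no more than the spread among these samples, which may be technical.

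Salt-inducible kinases are activated by the kinase LKB1 and are inhibited when PKA, the cAMP-dependent kinase, phosphorylates them. Active kinases phosphorylate CRTC coactivators and class IIa histone deacetylases, which are then held in the cytoplasm by 14-3-3 proteins. When the kinases are inhibited, or calcineurin removes the phosphate, CRTC enters the nucleus and joins CREB at cAMP response elements (CREs). Sik1 is itself a CREB target in muscle, so its transcript is part of a feedback loop. These steps run through protein phosphorylation and location, which transcript counts do not measure.

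The palindromic CRE has the letters TGACGTCA, and its short core is TGACG or, on the other strand, CGTCA. A full CRE holds a core on each strand, and these overlap. RefSeq promoter windows of GRCm38.p6, from 250 bases before to 50 after a transcription start, were found for 7 of the 10 members. No window was available for Sik1, Crtc2 or Crem, so these were not searched. Of the members with a window, 1 of 7 held a full CRE and 4 of 7 a core, against 3.36% and 34.1% of the 10738 tested genes with a window. The shares over all 32851 windows were 1.79% and 20.8%. The full match was in Slc25a25 (chromosome 2, 32414487 to 32451470, minus strand), at chr2:32424209-32424216. It lay 150 bases before the most downstream of 3 RefSeq starts, which is itself 27404 bases downstream of the first. In the GENCODE annotation it stood inside an intron of 6 of the 12 transcripts and in an exon of 0. The 250 bases before that start, with the CRE in capitals, and the stretch of the Dusp1 promoter around the full CRE of another known CREB target are as follows.
Slc25a25, chr2:32424067-32424316, minus strand: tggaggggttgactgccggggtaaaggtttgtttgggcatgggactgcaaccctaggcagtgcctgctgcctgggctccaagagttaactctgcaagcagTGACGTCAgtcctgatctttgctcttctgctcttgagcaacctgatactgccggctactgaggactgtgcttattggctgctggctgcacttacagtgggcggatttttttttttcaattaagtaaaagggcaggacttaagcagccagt
Dusp1, chr17:26508578-26508635, minus strand: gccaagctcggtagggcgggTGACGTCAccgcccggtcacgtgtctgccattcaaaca
Cores, in capitals, were spread over the windows of Nr4a1, an early CREB target whose level followed Sik1, of Sik3 and of Ppargc1a.
Nr4a1, chr15:101266596-101266845, plus strand: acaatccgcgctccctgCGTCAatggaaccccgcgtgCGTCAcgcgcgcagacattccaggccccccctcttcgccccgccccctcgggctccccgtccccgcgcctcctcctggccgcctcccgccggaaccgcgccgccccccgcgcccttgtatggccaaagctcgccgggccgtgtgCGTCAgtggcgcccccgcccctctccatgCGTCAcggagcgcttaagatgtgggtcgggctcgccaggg
Sik3, chr9:46012667-46012800, plus strand: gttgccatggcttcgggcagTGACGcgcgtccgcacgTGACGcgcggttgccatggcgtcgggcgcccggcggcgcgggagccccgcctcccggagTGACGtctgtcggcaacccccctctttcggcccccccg
Ppargc1a, chr5:51567737-51567794, minus strand: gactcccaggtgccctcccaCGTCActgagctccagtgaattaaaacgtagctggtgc
Nr4a1 had 4 cores before its start, at 233, 213, 69 and 40 bases, Sik3 had 3, and Ppargc1a had 1 at 49 bases. Only 1 Ppargc1a window was available. It lies inside the gene, which reaches upstream to position 52115853, and any start farther upstream was not searched. Among 13 other CREB targets with a window, 1 held a full CRE and 11 a core. A match describes the letters only, and binding was not measured.

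Library totals ran from 11333600 to 14335700 estimated counts, and each member had at least 85 counts in every library. Cardiomyocyte markers were high throughout, at 67475.7 to 115291 CPM summed over 7 of 7 genes, where CPM is the count per unit of library size, scaled by TMM. The libraries stood apart in the level of atrial transcripts. All 8 of 8 atrial markers were detected, none at 0 in any library, and their summed level spanned 1925 to 26446 CPM in AOS-FMT, 474 to 4183 in control-FMT, 331 to 3191 in busulfan and 2070 to 18688 in control. Transcripts of liver genes, 10 of 10 detected, summed to 69.3 to 716 CPM in AOS-FMT, 17.3 to 58.5 in control-FMT, 27.2 to 33.2 in busulfan and 7.66 to 62.3 in control, and Fga, Fgg and Mup3 were each at 0 in 1 library. In tissue RNA of this kind, fewer cells of a type and less RNA per cell cannot be told apart.

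Per transcript length, Sik1 and Sik3 were the most abundant kinases of the family, in an order that differed between groups. Mean TPM over the 12 libraries was 17.2 for Sik1, 16.4 for Sik3 and 4.82 for Sik2. By group, Sik1 averaged 35.0 TPM in AOS-FMT, 11.7 in control-FMT, 11.03 in busulfan and 11.2 in control, and Sik3 averaged 16.0, 17.9, 16.7 and 15.2 TPM in the same groups, so Sik1 led in AOS-FMT and Sik3 in the other 3. Among the coactivators Crtc2 had 9.45 TPM, Crtc3 7.78 and Crtc1 5.03, and the factors Crem and Creb1 had 5.81 and 4.63. Ppargc1a reached 11.8 TPM and Slc25a25 4.73. Sik1 varied most, with a coefficient of variation of its CPM over the 12 libraries of 61.1%, followed by Slc25a25 at 41.2% and Crem at 19.6%, while the other 7 lay between 8.36% and 16.1%.

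**Figure D1:**
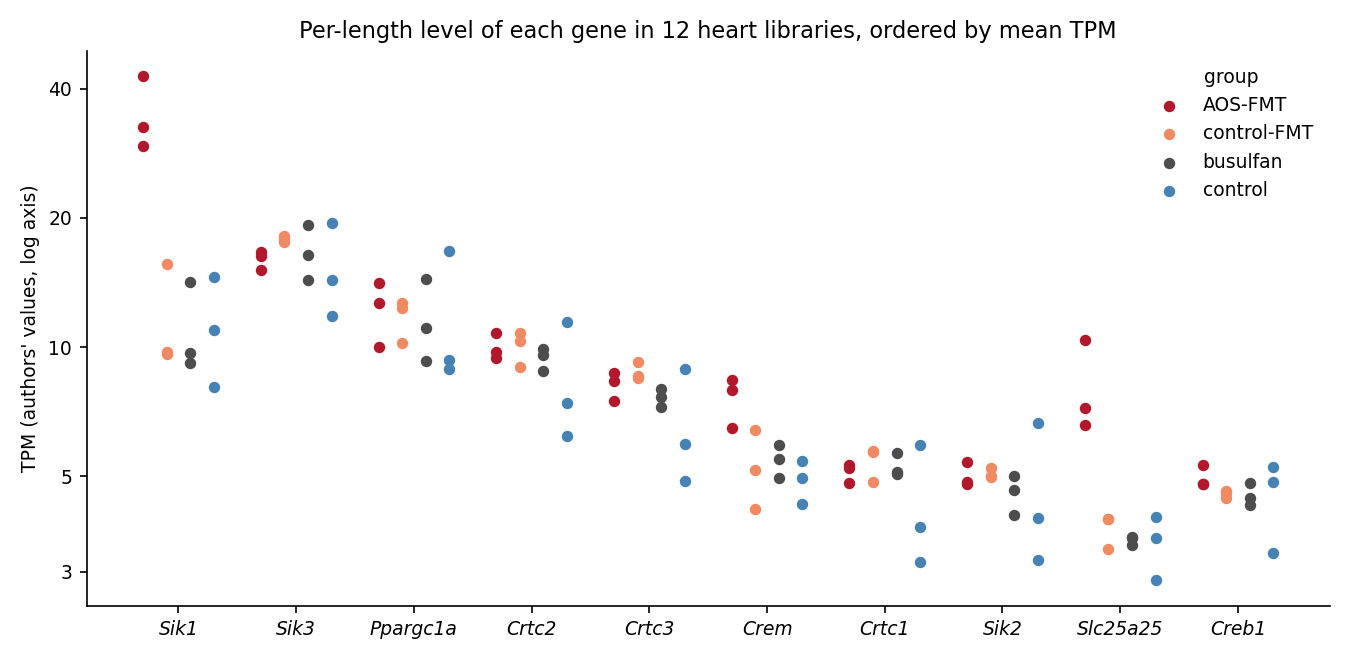
Authors' TPM of the 10 genes (log axis) in each of the 12 heart libraries, coloured by group, with genes ordered by their mean over all libraries. The 3 AOS-FMT points stand above the rest for Sik1 and Slc25a25 and, by a small margin (6.49 against 6.41 TPM), for Crem, and the groups interleave for most other genes.

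Sik1 (chromosome 17, 31844248 to 31855804) was the gene that differed most. Its level was 106, 96.6 and 138 CPM in AOS-FMT, 31.7, 32.8 and 50.8 CPM in control-FMT, 35.2, 32.4 and 48.1 CPM in busulfan, and 34.2, 45.7 and 43.3 CPM in control. All 3 AOS-FMT libraries lay above the other 9, the lowest at 96.6 CPM and the highest of the others at 50.8 CPM, and the other groups overlapped one another. The log2 fold change of AOS-FMT was 1.56 ± 0.21 (SE) against control-FMT, 1.56 ± 0.21 against busulfan and 1.47 ± 0.21 against control, which are folds of 2.95, 2.94 and 2.76.

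The transcript composition of the kinase family shifted with it. Sik1 made up 59.6%, 59.6% and 67.0% of the summed TPM of the 3 kinases in AOS-FMT, against 29.7%, 29.8% and 40.3% in control-FMT, 34.5%, 30.5% and 36.9% in busulfan, and 31.6%, 35.9% and 40.9% in control. Sik1 was thus the most abundant kinase transcript in the 3 AOS-FMT libraries and Sik3 in the other 9. The sum of the kinases was 56.0 ± 7.36 TPM (SD, n = 3) in AOS-FMT, 34.6 ± 3.62 in control-FMT, 32.3 ± 5.52 in busulfan and 31.0 ± 8.41 in control. The sum of the 3 coactivators, which the kinases phosphorylate, was 23.3 ± 1.53 TPM in AOS-FMT, 24.2 ± 1.74 in control-FMT, 22.3 ± 1.04 in busulfan and 19.2 ± 6.25 in control. With TPM the median log2 fold change of all genes against control was itself 0.16 in AOS-FMT, 0.14 in control-FMT and 0.06 in busulfan.

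Sik3 (chromosome 9, 46012820 to 46224194), a close relative of Sik1 that also acts on class IIa histone deacetylases, had 76.4, 70.1 and 73.9 CPM in AOS-FMT, 81.5, 85.1 and 83.3 in control-FMT, 73.3, 81.6 and 92.0 in busulfan, and 85.2, 86.0 and 66.2 in control. The AOS-FMT libraries were all below control-FMT, as was the case for 7.29% of all genes, and overlapped busulfan and control. Its log2 fold change in AOS-FMT was -0.18 ± 0.12 against control-FMT, -0.16 ± 0.12 against busulfan and -0.11 ± 0.12 against control. The last of these took the other sign, 0.10, with the authors' TPM. Sik2 (chromosome 9, 50889644 to 51009132) spanned 25.7 to 29.5 CPM in AOS-FMT, 27.0 to 28.3 in control-FMT, 25.0 to 28.7 in busulfan and 22.9 to 31.8 in control, and all groups overlapped. Its AOS-FMT log2 fold changes were between -0.01 and 0.02.

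**Figure D2:**
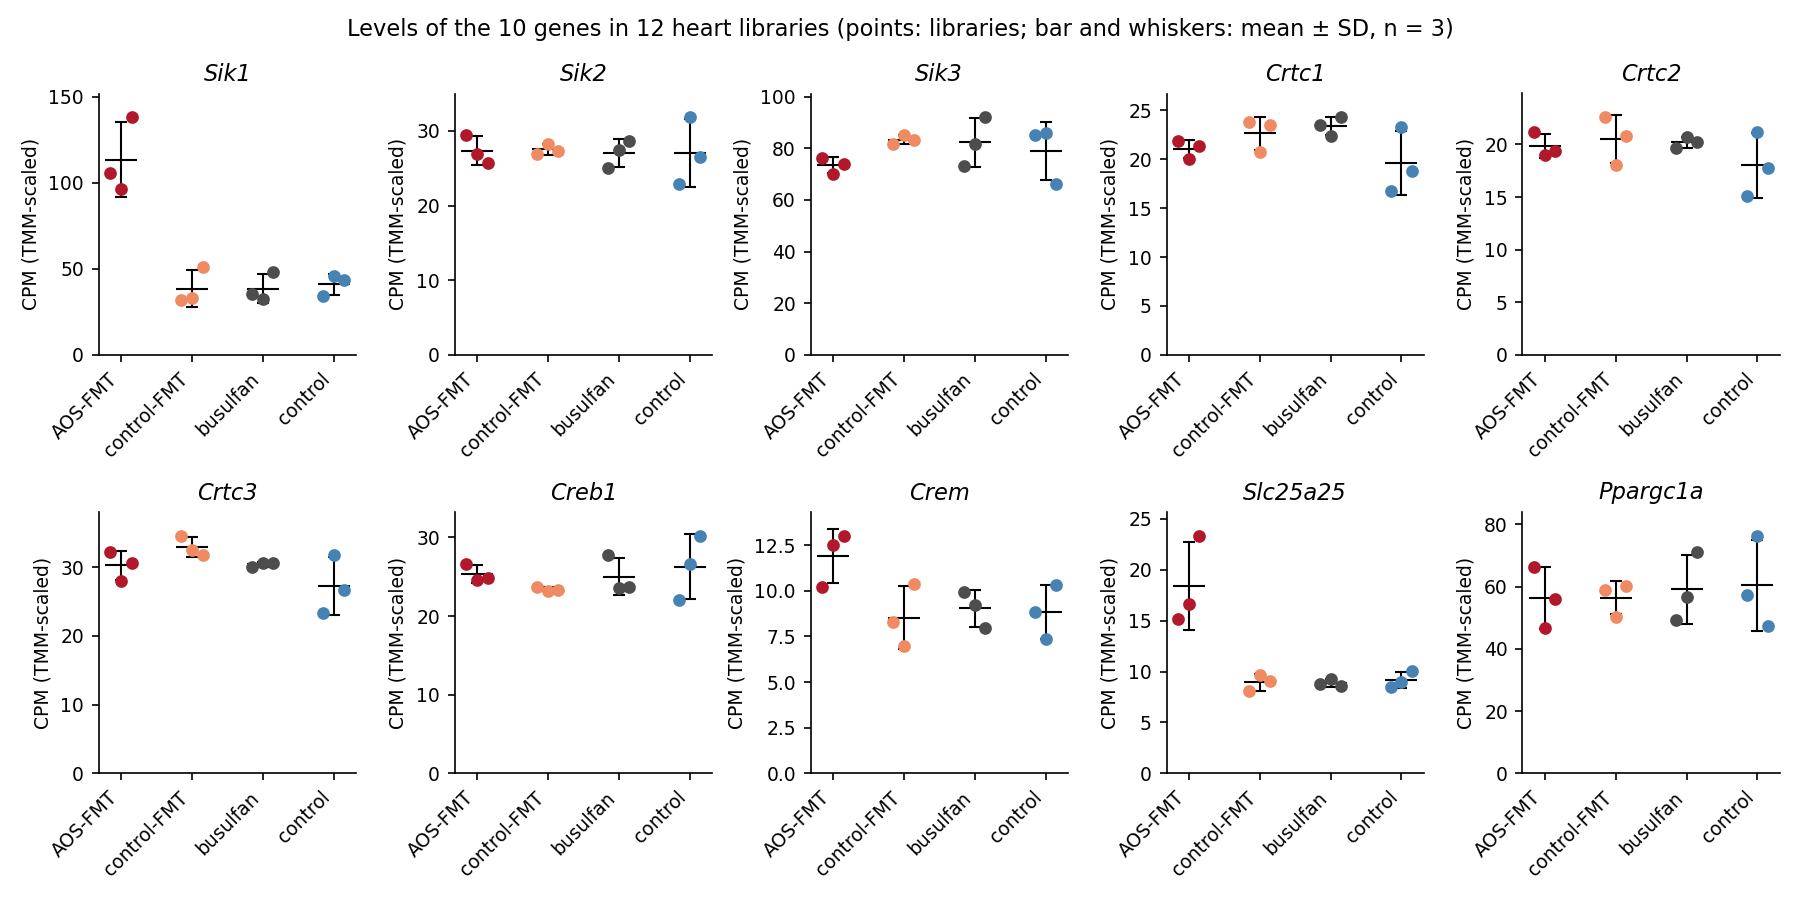
Level of each of the 10 genes (CPM scaled by TMM, axes from 0) in the 3 libraries of AOS-FMT, control-FMT, busulfan and control, with the mean and SD. Sik1 and Slc25a25 are the genes whose 3 AOS-FMT values lie above the other 9, and Crem misses this by 1 library, at 10.2 against 10.4 CPM.

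The coactivators showed little spread between the groups. Crtc1, the form best known from brain, averaged 21.1 ± 0.93 CPM in AOS-FMT, 22.6 ± 1.69 in control-FMT, 23.4 ± 0.94 in busulfan and 19.6 ± 3.31 in control (SD, n = 3). Crtc2, the form best known for glucose production in liver, averaged 19.8 ± 1.12 CPM in AOS-FMT, 20.5 ± 2.26 in control-FMT, 20.2 ± 0.52 in busulfan and 18.0 ± 3.07 in control. Crtc3 averaged 30.3 ± 2.15 CPM in AOS-FMT, 32.9 ± 1.46 in control-FMT, 30.4 ± 0.34 in busulfan and 27.3 ± 4.22 in control. Control replicate 1 was the lowest of the 12 libraries for each of the 3 coactivators, at 16.8 CPM for Crtc1, 15.1 for Crtc2 and 23.4 for Crtc3. In the order of group means, neighbouring groups overlapped for Crtc1 and Crtc2, and for Crtc3 the 3 control-FMT libraries (31.8 to 34.6 CPM) all lay above busulfan (30.0 to 30.6 CPM), as did 5.41% of all genes. Between groups that are not neighbours in that order, the 3 AOS-FMT values of Crtc1 (20.0 to 21.8 CPM) all lay below busulfan (22.4 to 24.3 CPM), as did 10.9% of all genes. The AOS-FMT log2 fold changes of the 3 coactivators ran from -0.15 ± 0.12 for Crtc1 against busulfan to 0.15 ± 0.11 for Crtc3 against control.

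Creb1, the factor that CRTC joins, averaged 25.4 ± 1.12 CPM in AOS-FMT, 23.4 ± 0.22 in control-FMT, 25.0 ± 2.38 in busulfan and 26.3 ± 4.12 in control, and neighbouring groups overlapped. Its AOS-FMT values (24.7 to 26.7 CPM) all lay above control-FMT (23.2 to 23.7 CPM), as did 6.52% of all genes, with a log2 fold change of 0.11 ± 0.12. Against busulfan it was at 0.02 ± 0.12 and against control at -0.05 ± 0.12. Crem encodes activators of the same family and, from an internal promoter, the inducible repressor ICER, and counts per gene do not separate these forms. Crem had 10.2, 12.5 and 13.0 CPM in AOS-FMT, 8.31, 6.96 and 10.4 in control-FMT, 9.92, 9.25 and 7.95 in busulfan, and 8.82, 7.37 and 10.3 in control. AOS-FMT replicates 2 and 3 were above the other 9 libraries, and replicate 1 lay just below the highest control-FMT and control values in CPM but above the 3 busulfan values, an order seen in 10.3% of all genes. The log2 fold change of AOS-FMT was 0.48 ± 0.18 against control-FMT, 0.40 ± 0.18 against busulfan and 0.43 ± 0.18 against control.

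Slc25a25 encodes an ATP-Mg/phosphate carrier of the inner mitochondrial membrane that shifts adenine nucleotides between matrix and cytosol and is regulated by calcium. It had 15.2, 16.7 and 23.3 CPM in AOS-FMT, 8.07, 9.66 and 9.06 in control-FMT, 8.79, 9.25 and 8.54 in busulfan, and 8.47, 8.96 and 10.1 in control. The AOS-FMT libraries were again above the other 9, with 15.2 CPM as their lowest and 10.1 CPM as the highest of the others. Log2 fold changes of AOS-FMT were 1.04 ± 0.16 against control-FMT, 1.05 ± 0.16 against busulfan and 1.00 ± 0.16 against control, or folds of 2.06, 2.07 and 2.00. The related carrier Slc25a23 had 98.9, 118 and 99.7 CPM in AOS-FMT and 97.1, 101 and 100.2 in control-FMT, with a log2 fold change of 0.09 ± 0.14 (adjusted p = 0.916). Slc25a24 had 13.2, 16.4 and 11.7 CPM in AOS-FMT against 10.3, 11.3 and 11.9 in control-FMT, a log2 fold change of 0.31 ± 0.18 (adjusted p = 0.797). Against busulfan and control, AOS-FMT was at 0.40 ± 0.18 and 0.36 ± 0.18 for Slc25a24 (adjusted p = 0.359 and 0.598). For Slc25a23 it was at 0.11 ± 0.14 and -0.02 ± 0.14 (adjusted p = 0.733 and 0.986).

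Ppargc1a (chromosome 5, 51454249 to 52115853) encodes PGC-1alpha, a coactivator of mitochondrial biogenesis and a CREB target in liver and muscle. It had 66.4, 46.6 and 56.2 CPM in AOS-FMT, 58.9, 50.3 and 60.2 in control-FMT, 49.4, 56.7 and 71.2 in busulfan, and 57.4, 76.3 and 47.4 in control. All groups overlapped, and the AOS-FMT log2 fold changes were 0.00 ± 0.19 against control-FMT, -0.07 ± 0.19 against busulfan and -0.10 ± 0.18 against control.

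Levels of 8 of 8 atrial markers were higher in AOS-FMT than in control-FMT and in busulfan, and 6 of 8 than in control, with 0 passing the test. All 10 of 10 liver markers were higher in AOS-FMT in each comparison, again with 0 passing. Against busulfan, 8 of 8 macrophage markers (median log2 fold change 0.55), 6 of 6 fibroblast markers (0.69) and 6 of 6 erythroid markers (1.22) were higher in AOS-FMT, and 5 of 5 ventricular markers (-0.72) and 7 of 7 cardiomyocyte markers (-0.46) were lower, with 0 passing in each list. With the atrial score (mean log2 CPM of 4 atrial genes) as a covariate, the Sik1 log2 fold change was 1.18 against control-FMT, 1.19 against busulfan and 1.47 against control. With a liver score it was 1.30, 1.30 and 0.99. Slc25a25 was at 0.97, 0.99 and 1.00 with the atrial score and at 0.77, 0.80 and 0.53 with the liver score against control-FMT, busulfan and control. AOS-FMT replicate 2 had the highest atrial sum of all libraries and the lowest Sik1 of its group, whereas replicate 3 had the highest liver sum and the highest Sik1 and Slc25a25. Beyond these values, the part of any of these cell types or tissues in the result was not tested.

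In calls over all genes tested, edgeR called 1 of 10 members for AOS-FMT against control-FMT, beside 0.0297% of all genes. For AOS-FMT against busulfan it called 2 of 10, beside 0.0445%, and against control 2 of 10, beside 0.0815%. The 3 AOS-FMT values were above the other 9 libraries for 2 of 10 members, beside 0.934% of all genes. Since Sik1 and Slc25a25 were chosen by these contrasts, nothing is read from these counts.

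**Figure D3:**
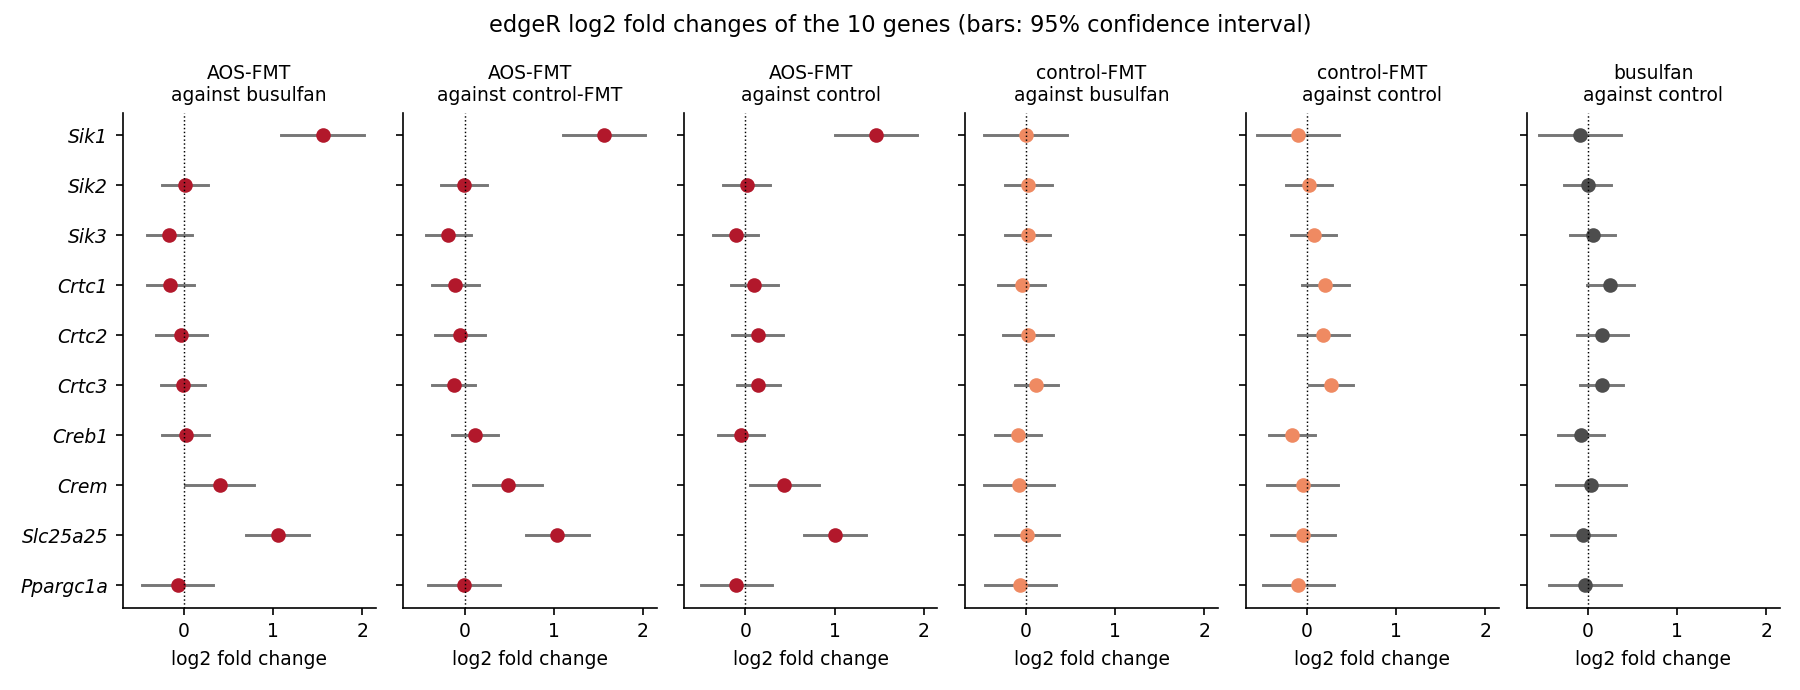
Log2 fold changes of the 10 genes from edgeR with 95% confidence intervals, in the 6 comparisons of AOS-FMT, control-FMT, busulfan and control. Sik1 and Slc25a25, chosen by their AOS-FMT values, lie at 1.47 to 1.56 and 1.00 to 1.05 in the 3 AOS-FMT panels. The intervals in those panels are a description and not a test. The points of the other 3 panels lie between -0.17 and 0.27.

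The comparisons without AOS-FMT were not used to choose the members, and they show how the axis behaved with busulfan and with control-FMT. No member passed the test in any of them. For busulfan against control, edgeR called 0 of 10 members, beside 0.0593% of all genes, and 0 of 10 had an unadjusted p under 0.05, beside 11.3% of all genes. DESeq2 and limma-voom also called 0, beside 119 and 5 of all genes. The median log2 fold change of the members was 0.02, against -0.01 over all genes. Crtc1 was farthest from 0, at 0.25 ± 0.12 (adjusted p = 0.462), with 23.5, 22.4 and 24.3 CPM in busulfan and 16.8, 23.2 and 18.8 in control. Sik1 differed by -0.09 ± 0.21 (95% interval -0.55 to 0.37, adjusted p = 0.915) and Slc25a25 by -0.05 ± 0.17 (interval -0.41 to 0.31, adjusted p = 0.945).

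For control-FMT against busulfan, 0 of 10 members were called by edgeR, DESeq2 or limma-voom, beside 0% of all genes with edgeR. DESeq2 called 2 of all genes there and limma-voom 0. With edgeR, 0 of 10 members had an unadjusted p under 0.05, beside 2.65% of all genes. Sik1 differed by -0.01 ± 0.21 (interval -0.47 to 0.46) and Slc25a25 by 0.01 ± 0.17 (interval -0.35 to 0.37), each with an adjusted p of 0.999. Crtc3 had the highest log2 fold change, 0.11 ± 0.11 (adjusted p = 0.999), and Crtc1 was at -0.05 ± 0.12 (adjusted p = 0.999).

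For control-FMT against control, 0 of 10 members were called by edgeR, DESeq2 or limma-voom, beside 0% of all genes with edgeR. DESeq2 called 89 of all genes there and limma-voom 0. Crtc3 was the 1 of 10 with an unadjusted p under 0.05, beside 8.2% of all genes. It had 34.6, 32.5 and 31.8 CPM in control-FMT and 23.4, 31.8 and 26.7 in control, a log2 fold change of 0.27 ± 0.11 (adjusted p = 0.558). Crtc1 was at 0.21 ± 0.12 (adjusted p = 0.686), Sik1 at -0.10 ± 0.21 (interval -0.56 to 0.36, adjusted p = 0.959) and Slc25a25 at -0.04 ± 0.17 (interval -0.40 to 0.32, adjusted p = 0.983). With busulfan or control-FMT, the 95% intervals of Sik1 thus reached from -0.56 to 0.46 in log2. Changes inside a comparison's own interval are not excluded by these libraries, and the intervals are not limits of detection.

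Sik1 was next related to the other members inside the groups, using deviations of log2 CPM from each group mean over the 12 libraries, so that the difference that chose Sik1 plays no part. An exact permutation test over all 1296 reorderings within groups was two-sided, with adjustment over the 9 relations. Pearson's r was positive for all 9 members, from 0.16 for Creb1 to 0.52 for Crtc1. None passed: the smallest unadjusted p was 0.091, for Crtc1 (Spearman's rho = 0.55, permutation p = 0.144), and the adjusted values were 0.634 for r and 0.588 for rho in each of the 9. For Slc25a25, r was 0.41 (permutation p = 0.255) and rho 0.36 (permutation p = 0.291). Next, r was taken without control-FMT replicate 3 and busulfan replicate 3, whose Sik1 deviation was farthest from the median. The deviations were still from the means of all 3 libraries of a group, so this r is not centred on the libraries kept. It ran over the 9 members from -0.047 for Sik3 to 0.62 for Slc25a25, with 0.54 for Crtc1, 0.26 for Ppargc1a and 0.14 for Crem. Sik1 lay below its group mean in all 4 libraries numbered 1 and above it in all 4 numbered 3, and the permutations, which treat the libraries of a group as exchangeable, take no account of this.

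**Figure D4:**
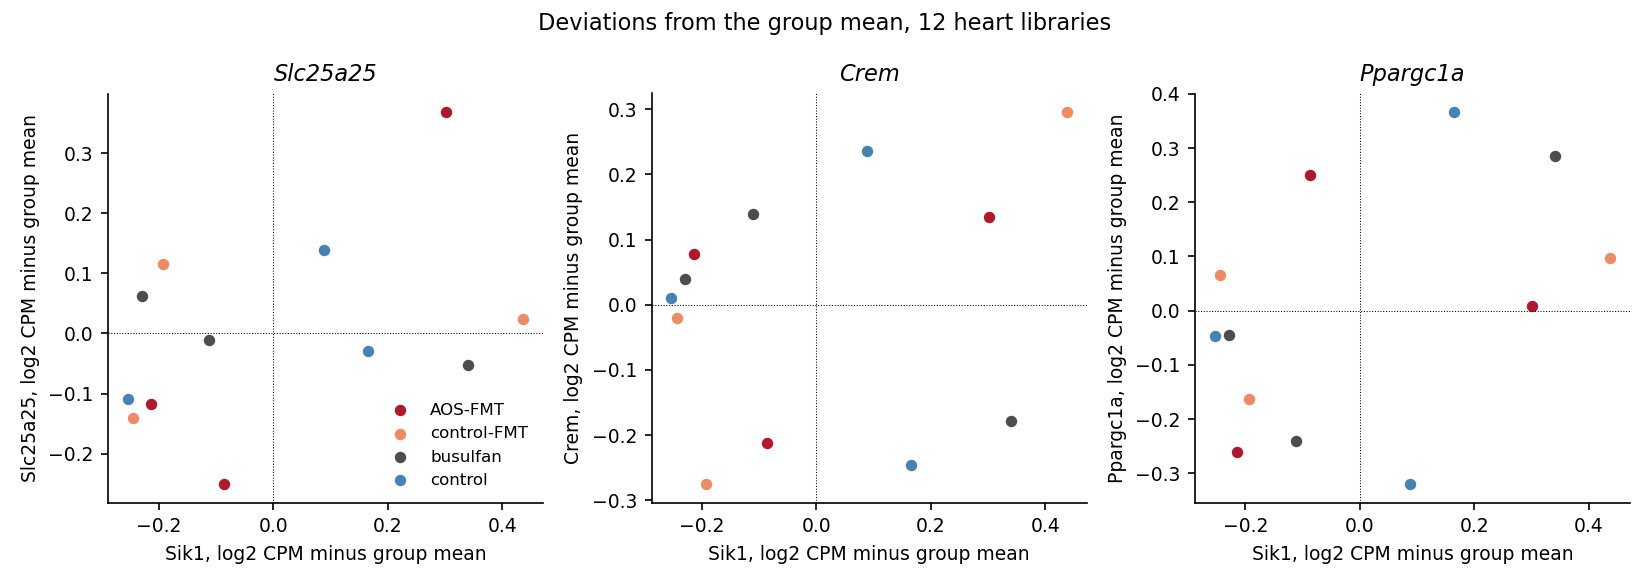
Deviation of Slc25a25, Crem and Ppargc1a from the group mean (log2 CPM, vertical) against that of Sik1 (horizontal) for the 12 libraries, coloured by group. The points scatter widely, with r of 0.41, 0.23 and 0.43.

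Other genes of the pathway were described from lists of 103 genes, of which 100 were tested. The lists were drawn up with earlier results of these data known, so their calls and p-values are descriptions. Only Irs2 among the 100 passed the edgeR test in an AOS-FMT contrast. Irs2 encodes an adaptor of the insulin receptor and is a CREB and CRTC target in liver. It had 73.5, 49.6 and 100.4 CPM in AOS-FMT, 16.1, 13.99 and 16.0 in control-FMT, 13.8, 16.5 and 18.5 in busulfan, and 13.7, 24.7 and 13.5 in control. The AOS-FMT libraries were all above the others. It rose by 2.27 ± 0.28 on the log2 scale against control-FMT (adjusted p = 0.0246), by 2.19 ± 0.28 against busulfan (adjusted p = 0.0226) and by 2.10 ± 0.27 against control (adjusted p = 0.0192). It was called in 11 of 22 alternative fits against control-FMT, in 15 of 22 against busulfan and in 18 of 22 against control. The call did not hold with the liver score as a covariate, where the log2 fold change was 1.64, 1.59 and 1.00 against control-FMT, busulfan and control (adjusted p = 0.828, 0.221 and 1.00). With the atrial score the log2 fold change was 2.01 against control-FMT and 1.95 against busulfan (adjusted p = 0.442 and 0.519). Leaving out any 1 busulfan library ended the call against busulfan. Leaving out any 1 control-FMT library, AOS-FMT replicate 1, or busulfan replicate 1 or 2 ended that against control-FMT, and leaving out control replicate 1 or 3 ended that against control, with log2 fold changes from 1.94 to 2.31 in these fits.

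The list of 13 tested CREB targets outside the members held the largest values. Its median log2 fold change in AOS-FMT was 1.07 against control-FMT, 1.50 against busulfan and 1.32 against control, while the median of all genes was between -0.01 and 0.00. Of the 13, 11, 12 and 12 were above 0 in these comparisons, 1 passed in each, and 7, 10 and 9 had an unadjusted p under 0.05, beside 6.23%, 13.6% and 8.87% of all genes. Since this list was chosen with earlier results of these data known, nothing is read from these counts. The orphan nuclear receptor genes Nr4a1, Nr4a2 and Nr4a3 are rapidly induced by cAMP and calcium in many tissues. Nr4a1 had 180, 164 and 193 CPM in AOS-FMT, 8.78, 9.16 and 59.0 in control-FMT, 10.4, 13.9 and 60.4 in busulfan, and 13.6, 24.2 and 34.7 in control. The AOS-FMT libraries were all above the others, and replicate 3 of control-FMT and of busulfan stood well above their groups. Its log2 fold change was 2.81 ± 0.90 against control-FMT (adjusted p = 0.752). Nr4a2 had 6.62, 6.20 and 6.51 CPM in AOS-FMT and 0.549, 1.15 and 2.16 in control-FMT, with a log2 fold change of 2.33 ± 0.45 (adjusted p = 0.197). Nr4a3 had 9.64, 10.1 and 26.8 CPM in AOS-FMT and 2.35, 2.70 and 2.33 in control-FMT, with 2.65 ± 0.47 (adjusted p = 0.195).

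The clock gene Per1 had 19.4, 31.0 and 45.8 CPM in AOS-FMT, 11.9, 10.6 and 14.9 in control-FMT, 11.8, 8.91 and 13.2 in busulfan, and 15.5, 14.1 and 13.5 in control. Its lowest AOS-FMT value was above every other library. Its log2 fold change was 1.36 ± 0.26 against control-FMT, 1.50 ± 0.26 against busulfan and 1.16 ± 0.26 against control (adjusted p = 0.197, 0.0992 and 0.168). Fos, part of the AP-1 factor, had 54.4, 63.4 and 56.5 CPM in AOS-FMT, 10.9, 15.9 and 56.5 in control-FMT, 15.1, 15.4 and 34.7 in busulfan, and 14.7, 30.7 and 24.4 in control. Control-FMT replicate 3 reached the AOS-FMT level of Fos, and the log2 fold change against control-FMT was 1.07 ± 0.59 (adjusted p = 0.797). Fosb, a relative of Fos, was at 2.16 ± 0.55 (adjusted p = 0.638). Dusp1, a phosphatase of MAP kinases whose CRE is printed above, was at 0.41 ± 0.19 (adjusted p = 0.797) and Junb, another AP-1 gene, at 0.28 ± 0.25 (adjusted p = 0.837). Egr1, another immediate early gene, was at -0.06 ± 0.59 against control-FMT, 0.28 ± 0.59 against busulfan and 0.94 ± 0.60 against control (adjusted p = 0.989, 0.854 and 0.693). Bdnf was at -0.07 ± 0.25, -0.30 ± 0.25 and -0.07 ± 0.25 in the same comparisons (adjusted p = 0.969, 0.591 and 0.965). Pck1, a gluconeogenic gene, had 4.84 ± 2.56 CPM in AOS-FMT and 2.42 ± 2.80 in control-FMT, with a log2 fold change of 1.01 ± 0.94 (adjusted p = 0.849). Its log2 fold change was 3.39 ± 1.12 against busulfan and 3.41 ± 1.11 against control (adjusted p = 0.296 and 0.389).

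**Figure D5:**
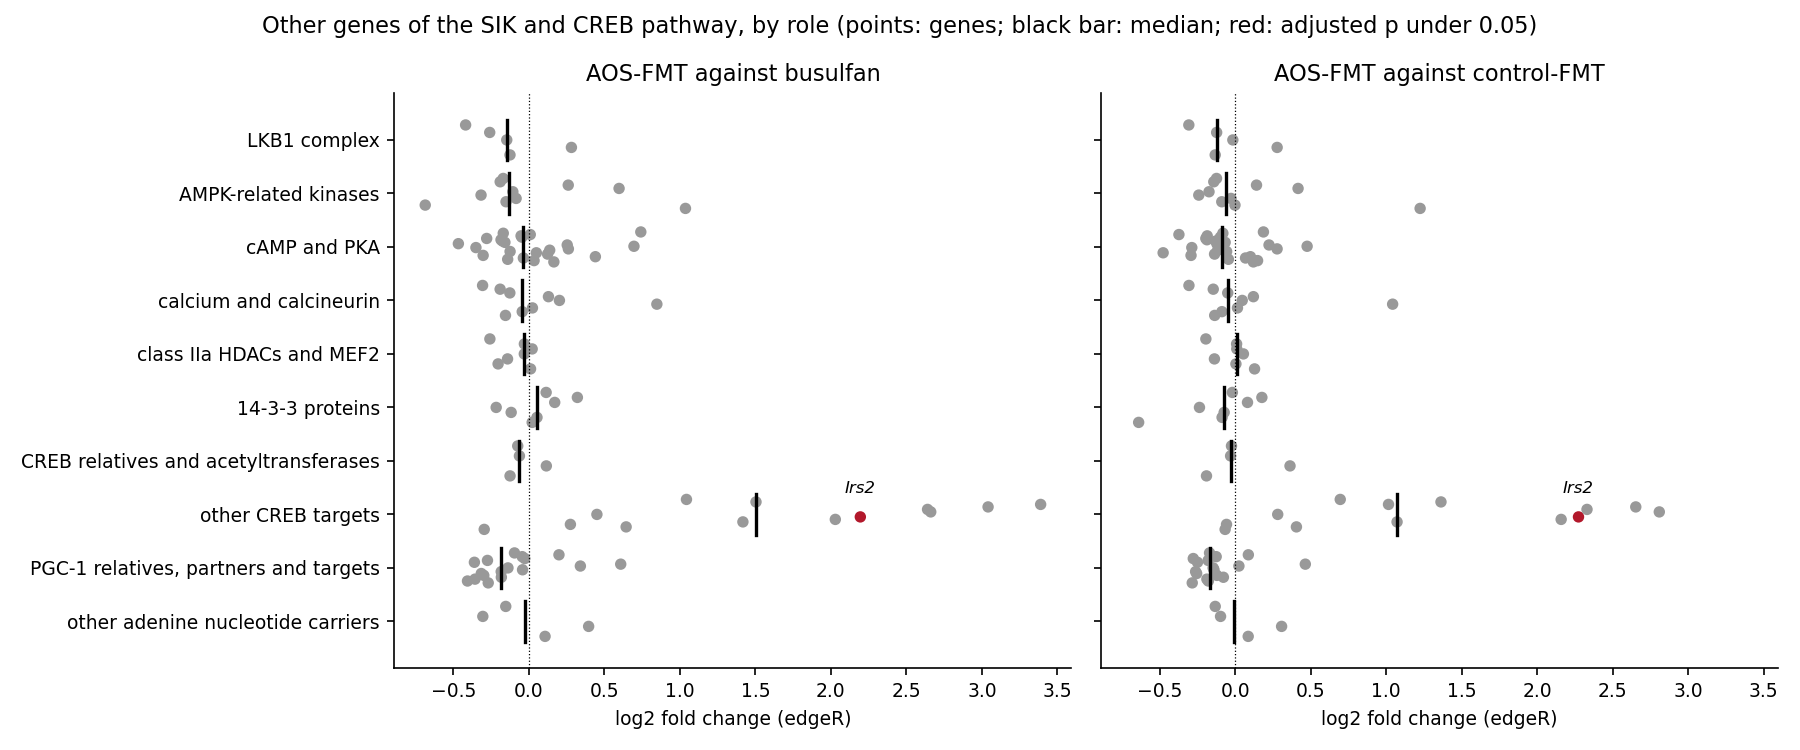
Log2 fold changes of the 100 tested pathway genes outside the members, in 10 lists by role, for AOS-FMT against busulfan (left) and against control-FMT (right). The black bar is the list's median, and Irs2 is the gene marked as passing the test. The list of other CREB targets has medians of 1.50 and 1.07, and the medians of the other 9 lists lie between -0.18 and 0.05.

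The lists of the LKB1 complex, AMPK-related kinases, cAMP and PKA, and calcium and calcineurin had medians between -0.18 and 0.07 in the AOS-FMT contrasts. In these contrasts 0 genes of these lists were called by edgeR. Against control-FMT, the medians were -0.12 for 5 genes of the LKB1 complex, -0.06 for 10 AMPK-related kinases, -0.09 for 24 genes of cAMP and PKA signalling and -0.05 for 9 of calcium and calcineurin signalling, and 1, 3, 2 and 0 of these genes had an unadjusted p under 0.05, beside 6.23% of all genes. Against busulfan 2, 4, 5 and 0 of the same lists did, beside 13.6% of all genes, and against control 0, 1, 2 and 0, beside 8.87%. Stk11, which encodes LKB1, had 139 ± 3.89 CPM in AOS-FMT and 140 ± 8.09 in control-FMT, a log2 fold change of -0.02 ± 0.11 (adjusted p = 0.984). Its partner Cab39 was at -0.13 ± 0.11 (adjusted p = 0.824). The AMPK relatives Snrk and Mark3 were at -0.12 ± 0.12 and -0.03 ± 0.09 (adjusted p = 0.859 and 0.963), and Nuak2 was at 0.42 ± 0.16 (adjusted p = 0.768). Gnas, which encodes the stimulatory G protein alpha subunit, was at -0.06 ± 0.11, and the PKA inhibitor gene Pkig at -0.19 ± 0.15 (adjusted p = 0.931 and 0.819). Pde4b, a phosphodiesterase that degrades cAMP, had 57.4 ± 6.20 CPM in AOS-FMT, 41.3 ± 1.98 in control-FMT and 35.5 ± 0.96 in busulfan, with log2 fold changes of 0.48 ± 0.11 against control-FMT (adjusted p = 0.508) and 0.70 ± 0.11 against busulfan (adjusted p = 0.0534). The calcium-dependent kinase gene Camk1 was at -0.14 ± 0.14 and the calcineurin regulator Rcan1 at -0.31 ± 0.17 against control-FMT (adjusted p = 0.864 and 0.797).

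Lists downstream of or beside the kinases also held 0 calls in the AOS-FMT contrasts. Against control-FMT, medians were 0.01 for 7 class IIa histone deacetylase and MEF2 genes, -0.07 for 7 genes of 14-3-3 proteins, -0.03 for 4 CREB relatives and acetyltransferases, -0.17 for 17 PGC-1 relatives, partners and targets and -0.01 for 4 other adenine nucleotide carriers, and in each of these lists 0 genes had an unadjusted p under 0.05, beside 6.23% of all genes. Against busulfan the numbers were 1, 1, 0, 4 and 1, beside 13.6% of all genes, and against control 0, 0, 1, 1 and 0, beside 8.87%. Hdac5, a class IIa deacetylase, was at 0.00 ± 0.09 and Mef2d, a factor it represses, at -0.19 ± 0.15 (adjusted p = 0.996 and 0.818). The 14-3-3 genes Ywhae and Ywhah were at -0.07 ± 0.10 and 0.08 ± 0.10, and the CREB relative Atf1 and the acetyltransferase gene Ep300 at -0.19 ± 0.12 and -0.02 ± 0.15 (adjusted p from 0.798 to 0.984). Among the PGC-1 list, Cox4i1 of respiratory complex IV was at -0.18 ± 0.18 and Acadm of fatty acid oxidation at -0.28 ± 0.21 (adjusted p = 0.861 and 0.815). The main adenine nucleotide exchangers Slc25a4 and Slc25a5 were at -0.10 ± 0.17 and -0.13 ± 0.14 (adjusted p = 0.925 and 0.868).

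In the comparisons without AOS-FMT, edgeR called 0 of the 100 pathway genes, and 7 for busulfan against control, 4 for control-FMT against busulfan and 4 for control-FMT against control had an unadjusted p under 0.05, beside 11.3%, 2.65% and 8.2% of all genes. Of all genes, DESeq2 called 119, 2 and 89 in these comparisons and limma-voom 5, 0 and 0. Of the pathway genes, limma-voom called 0 in each and DESeq2 2, 0 and 0. The 2 were Mark1, an AMPK-related kinase, with 29.7 ± 11.9 CPM in busulfan and 14.3 ± 2.09 in control (log2 fold change 1.06 ± 0.26, adjusted p = 0.246), and Rgs2, a brake on G protein signalling, with 24.6 ± 1.59 CPM in busulfan and 40.4 ± 7.08 in control (-0.71 ± 0.18, adjusted p = 0.239). The median of the 13 other CREB targets was -0.03 for busulfan against control, 0.24 for control-FMT against busulfan and 0.00 for control-FMT against control.

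The 5 genes of at least 5 CPM in a group that tracked Sik1 most closely were found by Pearson's r of log2 CPM over the 12 libraries, among 10790 genes. They were Nr4a2 (r = 0.954), Irs2 (0.953), Nr4a1 (0.949), Csrnp1 (0.945), a nuclear immediate early gene, and Fosl2 (0.945), an AP-1 gene. For Slc25a25 they were Fosl2 (r = 0.948), Nr4a3 (0.946), Sik1 (0.932), Irs2 (0.927) and Irf2bp2 (0.910). Nr4a2 and Nr4a3 passed the filter only through AOS-FMT, with means of 6.44 and 15.5 CPM there. In the other groups their means were 1.02 to 1.28 and 1.87 to 2.72 CPM, so nothing is read from their place in these lists. Fosl2 had 54.9, 50.7 and 72.9 CPM in AOS-FMT, 24.9, 22.2 and 22.3 in control-FMT, 21.9, 26.6 and 26.5 in busulfan, and 21.4, 31.5 and 27.5 in control. Csrnp1 had 13.0, 17.0 and 19.5 CPM in AOS-FMT, 8.31, 7.61 and 11.8 in control-FMT, 7.75, 7.55 and 10.4 in busulfan, and 9.42, 10.8 and 9.52 in control. In both genes the AOS-FMT libraries were above the other 9. The libraries share the group difference, so r is a description: with deviations from the group means it was 0.87 for Nr4a1 and Sik1, 0.83 for Csrnp1, 0.78 for Nr4a2, 0.58 for Irs2 and 0.51 for Fosl2, and with Slc25a25 it was 0.72 for Nr4a3, 0.59 for Irf2bp2, 0.54 for Fosl2, 0.41 for Sik1 and 0.31 for Irs2. These genes were picked by r over the same 12 libraries, so the values inside groups are a description too. Sik1 was farthest above its group mean in control-FMT replicate 3 and busulfan replicate 3, where Nr4a1 had 59.0 and 60.4 CPM.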

How the data were processed

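The authors deposited one table of estimated counts, TPM and FPKM per gene for 12 heart libraries, per the file headers. TPM scales reads per transcript length to a fixed total. The authors' TPM values were used for levels of genes, and for the sums and shares of kinases and coactivators by group. They also served as an alternative for the fits and for the within-group correlations. The deposited FPKM values and the authors' group averages were not used. The submitters' processing notes name Bowtie 0.12.2 and build mm10. How reads were counted, the annotation and the strand setting were not given in the sources used here. Of the deposited estimated counts, 94.7% to 95.3% per library were whole within 1e-09, and all were rounded.

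The filter on low counts, filterByExpr, kept 13489 of 17536 genes. TMM scaling factors lay between 0.908 and 1.08. One robust quasi-likelihood fit of edgeR 4.0.16 (R 4.3.3) over all 12 libraries, with group as its only term, gave 6 contrasts. Calls needed an adjusted p under 0.05 (Benjamini-Hochberg over the 13489 genes), and every adjusted p without another tool's name is from this test. DESeq2 1.42.0, limma 3.58.1 (voom), other scalings, no filter, a replicate block, marker scores as covariates and leaving out each library were the alternatives. The fit and the within-group correlation were tested on simulated data.

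The members and gene lists were chosen with earlier results of these data known. Besides the members, the rule named every list gene called, the 2 genes of highest mean TPM in each list, and the 5 genes whose log2 CPM tracked Sik1 or Slc25a25 most closely. Named outside it, after their values were seen, were Nuak2, Mark1, Pde4b, Rgs2, Per1, Fos, Fosb, Pck1, Egr1, Bdnf, Slc25a23 and Slc25a24. Gene positions and promoter windows are RefSeq's, on GRCm38.p6, the assembly that mm10 denotes, counted from 1. The transcripts and exons of Slc25a25 set against its CRE are GENCODE's.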

Additional observations from a re-analysis of the deposited data

How the results depend on the processing

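No member was called in a comparison without AOS-FMT under any of 22 alternative fits (0 of 660 gene fits, lowest adjusted p = 0.118). The sign turned in 66 of them, all with a log2 fold change of at most 0.17 in size at first. Of the members given singly, Sik1 turned to 0.28 for busulfan against control, 0.0073 for control-FMT against busulfan and 0.29 for control-FMT against control with the atrial score as a covariate. With the authors' TPM it was 0.065 for control-FMT against busulfan and 0.054 for control-FMT against control, with library size only 0.075 for control-FMT against busulfan, and with the liver score 0.0057 for the same. Slc25a25 turned to 0.012 for busulfan against control and 0.027 for control-FMT against control with the atrial score, to 0.028 and 0.096 with TPM, and to 0.0054 for control-FMT against control with library size only. Crtc1 turned to 0.032 for control-FMT against busulfan with TPM and to 0.034 with library size only. In each case the cause was not tested. Library size only moved the median of all genes to 0.14 for AOS-FMT against busulfan, and TPM moved it to 0.16 for AOS-FMT against control and 0.14 for control-FMT against control.

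Leaving out 1 library in turn gave Sik1 from -0.28 to 0.021 for busulfan against control (the high end without busulfan replicate 2), -0.26 to 0.18 for control-FMT against busulfan and -0.35 to 0.025 for control-FMT against control. Slc25a25 ran from -0.12 to 0.0058, -0.050 to 0.078 and -0.10 to 0.029 in the same comparisons, and Crtc1 from -0.084 to 0.013 for control-FMT against busulfan. In the AOS-FMT comparisons, Sik1 kept log2 fold changes of 1.30 to 1.81 and Slc25a25 of 0.79 to 1.17. The correlations with Sik1 inside groups, here with group means taken anew, ran from -0.21 to 0.32 for Creb1, -0.21 to 0.49 for Crem, -0.0085 to 0.49 for Crtc3 and -0.10 to 0.44 for Sik3.

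For AOS-FMT against busulfan, 1 pathway gene was called, against 6 with DESeq2 (Pde4b, Nr4a3, Per1, Nr4a2, Irs2 and Rgs2). The count was 6 with a replicate block, 4 with no filter, 0 with either marker score and 0 with only the 6 libraries compared. Over all genes tested, the calls were 6 in the main fit, 131 with DESeq2, 14 with a replicate block, 9 with no filter and 0 in the others. Against control-FMT the pathway count was 5 with DESeq2, and 0 with either marker score, TPM or the 6 libraries. Over all genes, 4 were called there in the main fit, 32 with DESeq2 and 0 in the others. Against control the pathway count was 4 with DESeq2, 3 with the atrial score, 3 with a replicate block, 2 with TPM, 2 with the 6 libraries and 0 with the liver score. Over all genes these fits called 122, 23, 25, 30, 6 and 0, beside 11 in the main fit. Leaving out 1 library gave 0 to 5 pathway genes against busulfan, 0 to 1 against control-FMT and 0 to 2 against control. The 5 and 2 were reached without AOS-FMT replicate 1, where 20 and 17 of all genes were called. For busulfan against control DESeq2 called 2 pathway genes, beside 119 of all genes. Leaving out 1 library gave 0 to 1, Mark1 being called without busulfan replicate 3. Fits with marker scores add a term whose slope comes from all 12 libraries.

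The labels name no shared litter, batch or day, so the numbers were not taken as pairs. Of 18 pairs of same-numbered libraries, 10 had deviations correlated above 0.1 (r from -0.18 to 0.43), among them all 6 pairs of replicate 1. No r of differently numbered pairs was set beside these, and whether same-numbered libraries share an effect was not tested. With a replicate block the Sik1 log2 fold change was 1.58 against control-FMT and 1.56 against busulfan. Against control-FMT 1 pathway gene was then called, beside 6 of all genes. It was Nr4a3 in place of Irs2, which was at 2.26 (adjusted p = 0.0544).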
